A study of Mus musculus with 4 samples.

Results

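The 5 genes described here encode carriers of lipids, retinoids and thyroxine: Cd36, Apoe, Dbi, Crabp1 and Ttr. They are read by 7 of the 25697 probes of the array, 1 probe for each gene except Dbi, which has 3, and 6 of these probes passed the filter that 12266 probes passed in all (a detection p-value below 0.05 on 2 arrays or more). The genes were selected on the measured difference between the groups of this study, so that the differences below describe the choice and carry no test. The study hybridised RNA bound to tagged ribosomes to Illumina MouseRef-8 v2 beadchips, with 2 arrays in each of 2 groups, all on 1 beadchip. Every animal carried Pomc-Cre, and tagged polysomes were pulled down with an anti-hemagglutinin antibody from mediobasal hypothalamus punches. In the lineage group (Pomc-Cre:RiboTag mice), a cross to the RiboTag mouse tags ribosomes in any cell that expresses Cre and in its descendants. In the virus-injected group (Pomc-Cre mice given AAV-DIO-RiboTag), a Cre-dependent viral vector carried the tag, so that tagging needs infection and Cre in the same cell, and the labels call these cells adult POMC neurons. The labels give no age, sex or number of animals behind an array, and no array of unprecipitated RNA is analysed here. Positions on the beadchip (B and D for the virus-injected arrays, F and H for the lineage arrays) and group cannot be told apart.

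Water-insoluble ligands move between and within cells on carrier proteins. CD36, a scavenger receptor of the plasma membrane, takes up long-chain fatty acids and oxidised lipoproteins, and apolipoprotein E, secreted in the brain mainly by astrocytes, packages cholesterol and phospholipid for uptake by receptors of the low-density lipoprotein receptor family. DBI (acyl-CoA-binding protein) holds fatty acyl-CoA esters in the cytosol and is also the precursor of endozepines, peptides that act at the benzodiazepine site of GABA-A receptors, while CRABP1 binds retinoic acid in the cytosol. Transthyretin, encoded by Ttr, carries thyroxine and, through retinol-binding protein, retinol; the choroid plexus is its main source in the brain, and Ttr transcripts also mark a subset of arcuate POMC neurons in the mouse.

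Cd36 and Crabp1 were the carrier genes whose signal was not above background on either lineage array, and the sequences around their transcription starts are shown for that reason. They are RefSeq windows (GRCm38.p6) from 250 bases before to 50 bases after the start, written 5′ to 3′ on the strand of the gene, Cd36 at chr5:17835847-17836146 on the minus strand and Crabp1 at chr9:54764498-54764797 on the plus strand. Capitals mark the GC box GGGCGG and the nuclear receptor half-site AGGTCA, searched on both strands together with the TATA motif TATAAA.
Cd36: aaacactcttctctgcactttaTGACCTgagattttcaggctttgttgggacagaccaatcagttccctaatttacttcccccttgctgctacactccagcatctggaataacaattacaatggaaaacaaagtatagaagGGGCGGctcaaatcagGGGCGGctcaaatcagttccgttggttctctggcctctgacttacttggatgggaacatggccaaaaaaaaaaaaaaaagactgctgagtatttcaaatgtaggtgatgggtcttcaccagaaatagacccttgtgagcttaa
Crabp1: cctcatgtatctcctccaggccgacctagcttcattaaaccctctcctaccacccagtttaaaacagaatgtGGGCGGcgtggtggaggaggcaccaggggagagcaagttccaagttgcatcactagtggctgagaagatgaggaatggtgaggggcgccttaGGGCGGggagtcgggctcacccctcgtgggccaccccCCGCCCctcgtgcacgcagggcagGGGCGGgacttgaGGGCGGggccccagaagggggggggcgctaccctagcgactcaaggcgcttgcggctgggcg
The Cd36 window held 2 GC boxes, both on the gene's strand, and 1 half-site on the opposite strand, while the Crabp1 window held 5 GC boxes, 4 of them on the gene's strand, and no half-site. Its GC content was 65% against 43% for Cd36. A GC box lies in 35.7% of the 32851 windows of this table, a half-site in 16.3% and a TATA motif in 13.6%. The windows of Dbi and Apoe held neither a GC box nor a half-site, and TATAAA matched in 1 of the 3 Apoe windows only. These matches describe letters and not bound sites, and the arrays did not measure promoter activity.

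Among the lipid carriers, Cd36 was read at 836 ± 39.8 (bead standard error) and 751 ± 32.7 intensity units on the virus-injected arrays and at 425 ± 18.0 and 473 ± 19.2 on the lineage arrays. Both virus-injected arrays were above both lineage arrays. The bead errors describe single arrays and not the spread between arrays. Detection p-values were 0.00125 and 0.00376 in the virus-injected group and 0.383 and 0.236 in the lineage group, where the probe was therefore not well above background. After background correction and quantile normalisation, the virus-injected arrays had a log2 mean of 8.50 ± 0.16 (SD, n = 2) and the lineage arrays one of 6.43 ± 0.17. The lineage value is only a bound, so the dimmest detected probe of each lineage array was taken as the floor. On this corrected scale Cd36 was higher by at least 1.95-fold with virus injection. The bound does not hold without background correction, where the log2 difference was -0.80. In RNA from a precipitate, fewer cells of a type and less RNA per cell cannot be told apart.

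Apoe was detected on all 4 arrays, at 1426 ± 49.3 and 1357 ± 75.7 units in the virus-injected group and 859 ± 39.2 and 918 ± 59.4 in the lineage group. The groups did not overlap and the arrays within a group lay close together. On the normalised log2 scale the virus-injected mean of Apoe was 9.91 ± 0.04 (SD, n = 2) and the lineage mean 8.89 ± 0.01. The virus-injected signal was thus 2.02-fold that of the lineage group (log2 difference, lineage minus virus-injected, -1.01, SE 0.14). The SEs of the carrier probes come from a fit over all 25697 probes, before the filter.

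Dbi was read by probes that gave unequal answers. On its brightest probe (ILMN_1215469) the intensities were 9875 ± 356 and 8338 ± 275 on the virus-injected arrays and 5901 ± 195 and 6785 ± 207 on the lineage arrays. The groups were apart, but in these units the virus-injected arrays differed from each other by about as much as the nearest arrays across groups. This probe was higher by 1.38-fold with virus injection, with log2 means of 13.03 ± 0.10 (SD, n = 2) and 12.57 ± 0.14 and a difference of -0.47 (SE 0.16). A further probe (ILMN_3150159) had 1673 and 1505 units on the virus-injected arrays and 1211 and 1307 on the lineage arrays, a difference of -0.44 (SE 0.14), or 1.35-fold in the same direction. The remaining probe (ILMN_3071356), at 518 and 598 against 529 and 561 units, was detected on 1 of 4 arrays, did not pass the filter and overlapped between groups, with a difference of -0.05. The annotation gives all 3 probes the same transcript, and the part of it that each probe reads is not given in the sources used here.

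For the retinoic acid carrier Crabp1, the intensities were 697 ± 25.0 and 781 ± 41.7 units in the virus-injected group and 446 ± 24.7 and 462 ± 16.7 in the lineage group. The order of the groups was that of Cd36, with detection p-values of 0.0125 and 0.00125 in the virus-injected group and 0.254 and 0.278 in the lineage group. The log2 means were 8.27 ± 0.36 (SD, n = 2) and 6.47 ± 0.005. With the same floor, Crabp1 was higher by at least 1.66-fold with virus injection. This bound too holds on the corrected scale only (log2 difference -0.68 without background correction). With a detection limit of 0.01 in place of 0.05 the probe no longer passed the filter, since only 1 array was that clearly above background.

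Ttr, the thyroxine carrier, was the only one of the 5 with a higher signal in the lineage group. It was read at 638 ± 21.8 and 600 ± 24.4 units in the virus-injected group and at 1080 ± 40.9 and 1048 ± 33.3 in the lineage group. Both lineage arrays stood clear of background, while the virus-injected arrays lay just above it, with detection p-values of 0.0263 and 0.0426. The virus-injected arrays had a log2 mean of 7.59 ± 0.14 (SD, n = 2) and the lineage arrays one of 9.34 ± 0.14, a 3.36-fold difference (log2 1.75, SE 0.17).

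**Figure D1:**
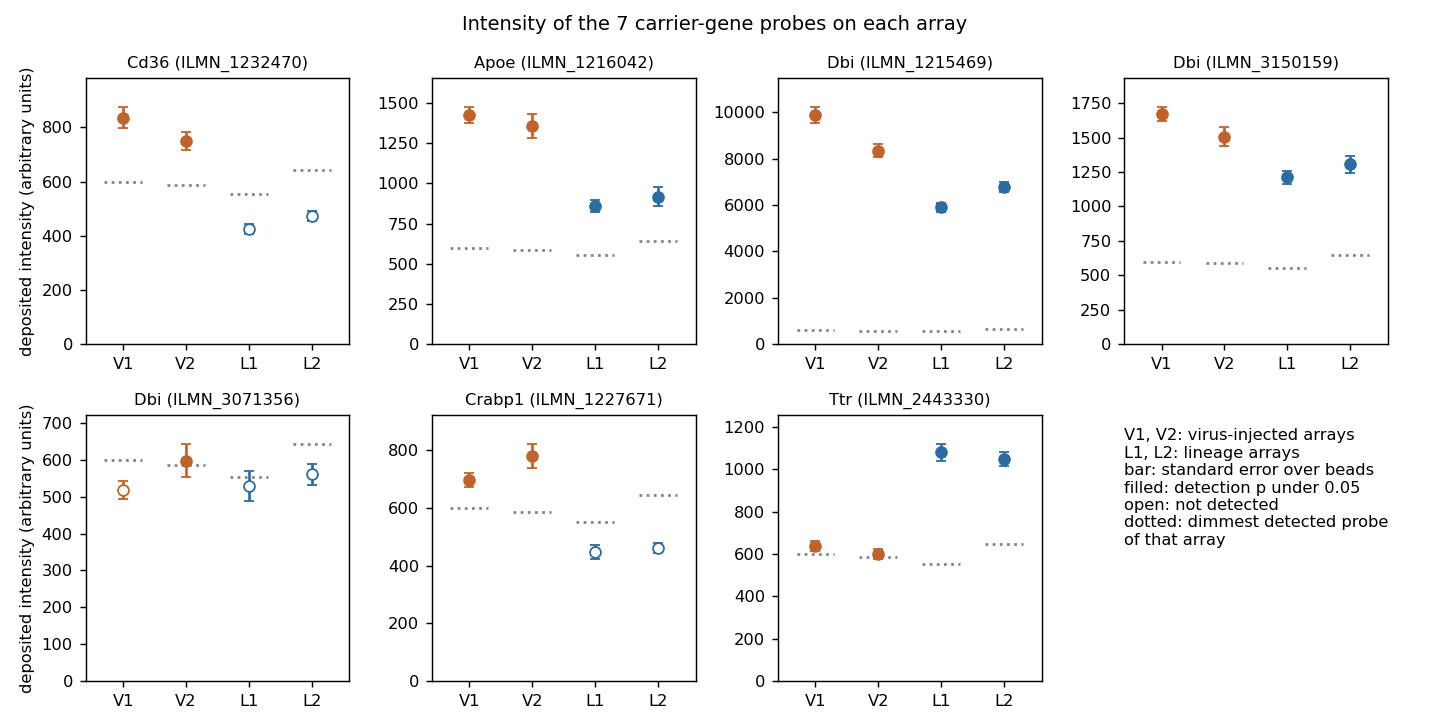
Deposited intensity (vertical axes, arbitrary units, from 0) of the 7 probes on the virus-injected arrays V1 and V2 and the lineage arrays L1 and L2. Bars are standard errors over beads, open points are not detected, and dotted lines mark the dimmest detected probe of each array; Ttr is higher and Cd36, Apoe, Crabp1 and the brighter Dbi probes are lower on both lineage arrays.

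The bead errors were 2.96% to 7.68% of the intensity over the 7 probes and 4 arrays, with 26 to 57 beads a probe. On the normalised log2 scale, the arrays nearest to each other across groups were 1.55 apart for Ttr, 0.98 for Apoe, 0.38 for Dbi ILMN_3150159 and 0.29 for Dbi ILMN_1215469. The median SD between the arrays of a group was 0.15 in each group over all tested probes. Since the genes were chosen for their difference, that SD is no test of their gaps. Of these 3 genes, Dbi separated the groups by the smallest margin. Cd36 and Crabp1 were at background on the lineage arrays, so that no such gap is given for them.

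Over all probes past the filter, no probe passed an adjusted p of 0.05 in limma's fit (0 of 12266, 0%, with a lowest adjusted p of 0.134). At an unadjusted p under 0.05, 4.84% of the tested probes were higher in the lineage group and 5.55% lower. Groups that do not overlap are common with 2 arrays each: 21.9% of the tested probes were higher on both lineage arrays than on both virus-injected arrays, and 21.4% were lower. Of the 6 carrier-gene probes that passed the filter, 1 was of the first kind and 5 of the second, which follows from how they were chosen. Cd36 and Crabp1 passed the filter only through the virus-injected group. Counted from the lowest of the 12266 differences, Apoe had rank 136 and the Dbi probes ranks 1049 and 1166. Counted from the highest, Ttr had rank 12.

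The size of the Cd36, Crabp1, Apoe and Ttr differences moved with the treatment of background more than with scaling or with any single array, whereas the brightest Dbi probe moved more with single arrays (-0.58 to -0.37 with 1 left out). Without background correction, the log2 difference was -0.80 for Cd36, -0.68 for Crabp1, -0.62 for Apoe, 0.81 for Ttr and -0.44 for the brightest Dbi probe. In the authors' processed values, from which a constant had been subtracted, Cd36 averaged 354 with virus injection and 20.6 in the lineage group, and Crabp1 305 and 25.9. Ttr averaged 184 and 654 there, Apoe 937 and 473, and the brightest Dbi probe 8421 and 6085. With 1 array left out, Cd36 stayed between -2.24 and -1.93, Crabp1 between -2.03 and -1.55, Apoe between -1.05 and -0.99, and Ttr between 1.63 and 1.86. The direction of these probes was the same under the 9 settings tried for each, and the dim Dbi probe alone changed sign. Much of this follows from the choice of probes whose groups do not overlap. Leaving 1 array out could hardly turn their sign, and the replicate block leaves each difference unchanged.

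**Figure D2:**
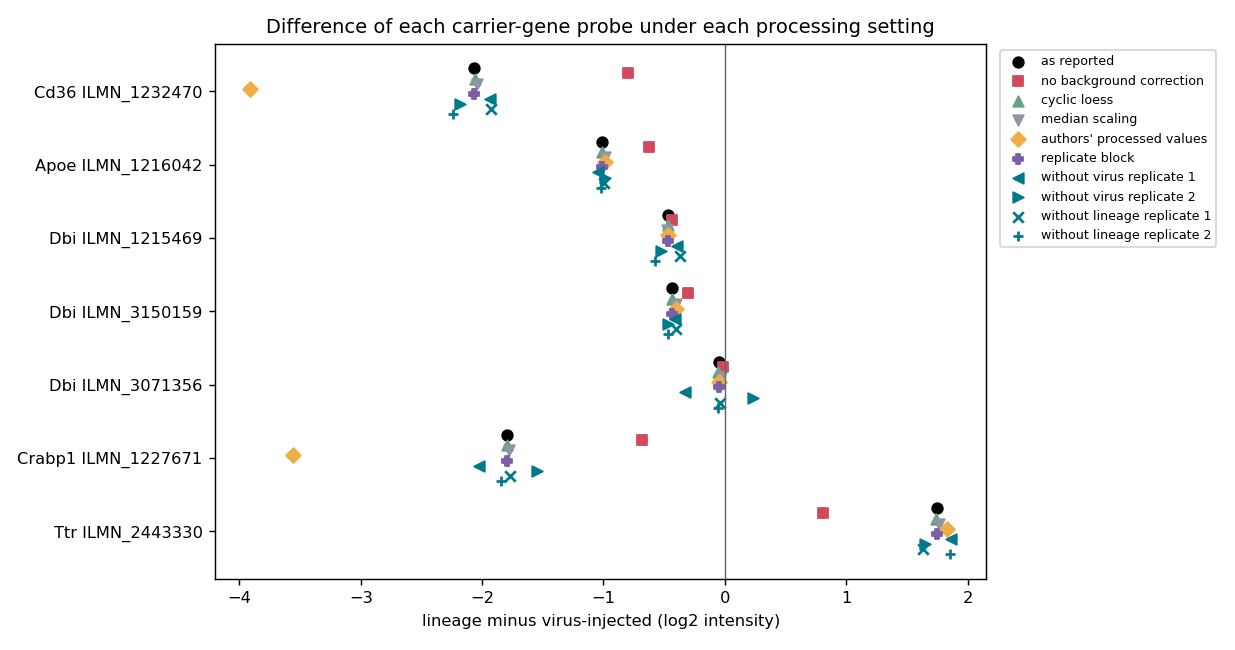
Log2 difference, lineage minus virus-injected (horizontal axis), of each of the 7 probes under the reported processing and 9 alternatives (symbols). Without background correction Cd36, Crabp1, Apoe and Ttr lie nearer to 0, and the authors' values put Cd36 at -3.91 and Crabp1 at -3.56.

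The other genes of the same pathways did not share one direction. Each was read by its brightest tested probe, and no gene of the 5 lists passed the adjusted threshold in limma's fit (0 higher and 0 lower in every list), so that the values that follow are measurements and not calls. Of 18 tested genes of fatty acid uptake and binding, 1 was higher and 0 were lower in the lineage group at an unadjusted p under 0.05, and the list's median difference was 0.03, against 0.003 over all tested probes. Scp2, the sterol carrier protein, was at 0.84 (SE 0.17, limma adjusted p = 0.309), with 0.71, 0.25 and 0.64 on its other probes. Acbd3, a further acyl-CoA-binding-domain protein, was at 0.34, Pltp, the phospholipid transfer protein, at -0.48 and Fabp7, the brain fatty acid-binding protein of glia, at -0.49. With 1 array left out, Pltp ranged from -0.72 (without lineage replicate 2) to -0.25 (without lineage replicate 1) and Fabp7 from -0.82 (without lineage replicate 1) to -0.15 (without lineage replicate 2). Fabp7 was not detected on lineage replicate 2.

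Of 10 tested apolipoprotein and lipoprotein receptor genes, 0 were higher and 1 was lower at an unadjusted p under 0.05, with a median of -0.05. The gene was Scarb1, which encodes the high-density lipoprotein receptor SR-B1, a relative of CD36. It had log2 values of 9.71 and 8.13 on the virus-injected arrays and 6.75 and 6.81 on the lineage arrays. The groups did not overlap, but the virus-injected arrays lay far apart. Both lineage arrays were at background. On the corrected scale, the mean of the virus-injected arrays was at least 2.61-fold higher, with the floor used for Cd36 (limma adjusted p = 0.377). Without background correction Scarb1 was at -0.91, short of that bound. It passed under an eBayes fit with a trend, a model in which the spread follows brightness (limma adjusted p = 0.0224), the lowest over its alternatives. That call rests on lineage values at background, and the probe passed the filter only through the virus-injected group. Scarb2, the lysosomal member of the CD36 family, was at 0.40, Abca1, a cholesterol exporter that loads lipid onto apolipoprotein E, at 0.37, and Npc2, a lysosomal cholesterol carrier, at -0.16. Both Scarb2 and Abca1 were at 0.15 without virus-injected replicate 1, and at 0.65 and 0.59 without virus-injected replicate 2.

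Few retinoid genes could be measured: 6 of 20 on the array passed the filter and 12, among them Crabp2, Stra6, Rara and the 3 Aldh1a genes, were detected on no array. Of the 6, 1 was higher and 0 were lower at an unadjusted p under 0.05 (median 0.02). Rdh10, which oxidises retinol on the way to retinoic acid, was at 0.79 (SE 0.23, limma adjusted p = 0.420), Rdh11, a retinal reductase, at -0.47, and Rxrb, a retinoid X receptor, at 0.14. Rdh11 ranged from -0.71 to -0.23 and Rxrb from 0.039 to 0.25, the first value of each without lineage replicate 1 and the last without lineage replicate 2. Rbp2, a cellular retinol-binding protein at background on both lineage arrays, overlapped between the groups, at log2 values of 7.71 and 7.52 with virus injection and 7.30 and 7.53 in the lineage group. For the hormone that transthyretin carries, 4 of 6 values were negative, beside 6058 of all 12266 tested probes. Of 6 tested genes of thyroid hormone transport and signalling, 0 were higher and 2 were lower at an unadjusted p under 0.05 (median -0.39). Slc7a5, an amino acid transporter that also carries thyroid hormones, was at -0.88 (SE 0.16, limma adjusted p = 0.303) and Thrb, a thyroid hormone receptor, at -0.57 (SE 0.18, limma adjusted p = 0.426). Slco1c1, a thyroxine transporter of brain vessels and astrocytes, was at -0.69 and went to 0.026 without lineage replicate 1, an array on which it was not detected. Klf9, a target of the thyroid hormone receptor, was at 0.47 (0.26 without virus-injected replicate 1).

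The targets of DBI peptides lay mostly on the other side of 0 from Dbi itself. Of 6 tested genes, 2 were higher and 0 were lower in the lineage group at an unadjusted p under 0.05, with a median of 0.35. Gabra2, a GABA-A receptor subunit that takes part in the benzodiazepine site, was at 0.79 (SE 0.16, limma adjusted p = 0.309). The subunits Gabrg1, Gabra5 and Gabrg3 were at 0.55, 0.40 and 0.29 (Gabrg3 at 0.17 without lineage replicate 2). The other tested genes of this list were at 0.01 and -0.17. Tspo, the mitochondrial protein that DBI also binds, was detected on no array. Whether these lists differ from the rest of the probes was not tested.

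**Figure D3:**
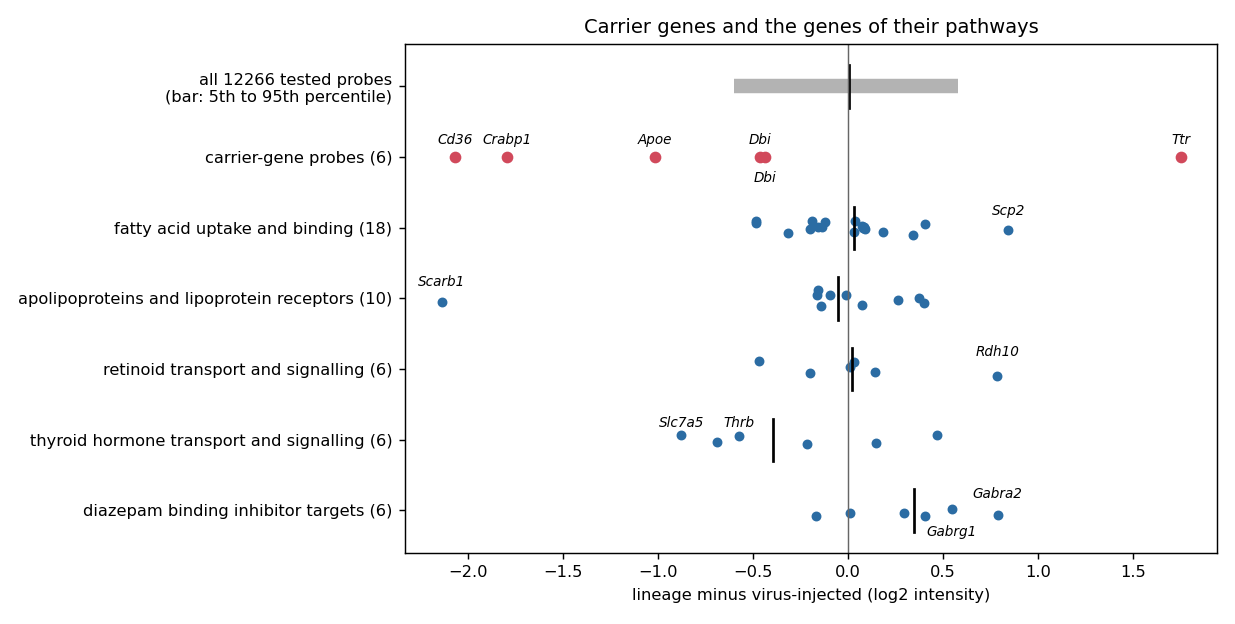
Log2 difference, lineage minus virus-injected (horizontal axis), of the 6 tested carrier-gene probes (red) and of the tested genes of the 5 pathway lists (blue, jittered vertically). Black ticks are medians, the grey bar spans all but the lowest and highest 5% of the 12266 tested probes (-0.60 to 0.58), and genes at an unadjusted p under 0.05 are named.

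Several carriers are also known from cells other than neurons, and the values of the markers of those cells stand beside theirs here, none past the adjusted threshold in limma's fit. Beside Apoe and Dbi, which astrocytes express strongly, all 6 tested astrocyte markers had a lower mean in the lineage group. Of all 12266 tested probes, 6058 had a lower mean. Their summed normalised intensity was 10028 to 11278 on the virus-injected arrays and 8114 to 8227 on the lineage arrays, and Gja1 (connexin 43) was at -0.61 (limma adjusted p = 0.382), while Gfap and Sox9 were detected on no array. All 4 tested oligodendrocyte markers had a lower mean as well, with sums of 3532 to 4067 and 2143 to 2548, Mbp at -1.18 (-0.10 and -0.49 on its other probes) and Mog detected on no array. The part of glial RNA in the Apoe and Dbi differences was not tested.

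Beside Cd36, which endothelial cells and microglia express, only 2 of 9 endothelial markers and 1 of 9 microglial markers on the array passed the filter. Cdh5, Tek, Kdr, Tie1 and Eng were detected on no array, nor were Itgam, P2ry12, C1qa, C1qb, Trem2 and Mrc1. The endothelial sum was 514 to 901 on the virus-injected arrays and 649 to 660 on the lineage arrays, so that the groups overlapped. Ly6c1 was at -0.17 and the other tested endothelial marker at 0.03. The microglial marker Aif1 summed to 472 to 575 and 279 to 445, at a difference of -0.56 (-0.16 on its other probe). Aif1 was at -0.23 without lineage replicate 1 and at -0.90 without lineage replicate 2. The mural sum was 2379 to 3001 and 2608 to 2756, with 5 of 7 markers detected on no array. Acta2 made the larger part of it, at log2 means of 10.86 (virus-injected) and 11.22 (lineage), against 9.66 and 8.19 for Rgs5. Of the 2 tested mural markers, Rgs5 was at -1.47 and Acta2, named after its values were seen, at 0.36, with 0.23 on its other probe. The part of vascular and microglial RNA in the Cd36 difference was not tested.

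Beside Ttr, 3 of 9 choroid plexus markers on the array passed the filter, and Folr1, Clic6, Aqp1, Otx2, Cldn2 and Sostdc1 were detected on no array. The sum of the 3 was 3758 to 3854 on the virus-injected arrays and 3540 to 3834 on the lineage arrays, the groups overlapping, and their median difference was -0.08. This sum is mostly Kl, with log2 means of 11.72 (virus-injected) and 11.64 (lineage). Kcne2 (7.54 and 7.99) and Calml4 (7.97 and 7.83) were dim, so the overlap says little of them. Kcne2 was at 0.45, with the sign turned (-0.017) when lineage replicate 2 was left out. Kl and Calml4, named after their values were seen, were at -0.08 and -0.14, and Calml4 went to 0.25 without lineage replicate 1. Of the tanycyte and ependymal markers, 2 of 9 passed, with sums of 283 to 470 and 492 to 555 and Vim at 0.70 (0.28 without virus-injected replicate 2). Each of the 2 was detected on only 1 of the virus-injected arrays, so that the sums there partly rest on values at background. Rax, Nes, Col23a1, Lhx2, Foxj1 and Tm4sf1 were detected on no array. The 7 anterior pituitary markers on the array were also detected on none.

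The neuronal label of the precipitates can be read beside these values. All 8 pan-neuronal markers were tested, with sums of 33600 to 33727 on the virus-injected arrays and 35464 to 36671 on the lineage arrays. The mean of 6 of the 8 was higher on the lineage arrays (median difference 0.12), while Syt1 was at -0.48. Of all 12266 tested probes, 6205 had a higher mean there. The 8 POMC neuron markers summed to 27315 to 29904 and 32023 to 32406, 7 of them with a higher mean in the lineage group, Pcsk1 at 0.98 and Pomc at 0.65 (limma adjusted p = 0.369). The marker with a lower mean made the largest part of the sum, at log2 means of 14.08 (virus-injected) and 14.02 (lineage). Rpl22, whose protein carries the tag, was at -0.95 on a probe of unknown position. The part of a larger yield from POMC neurons in the Ttr difference was not tested.

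**Figure D4:**
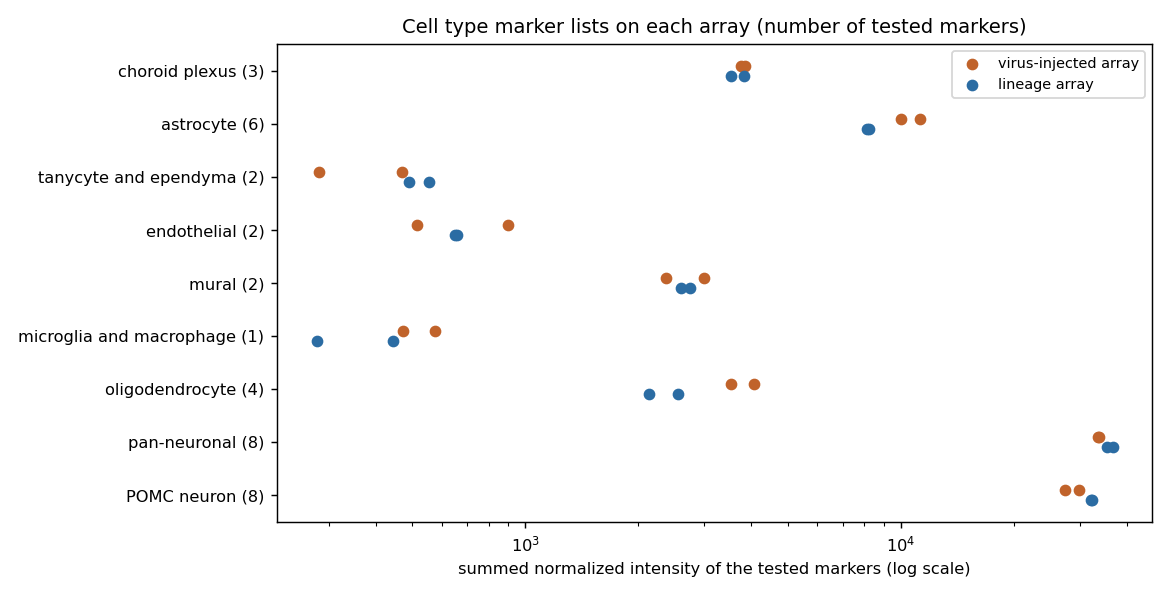
Summed normalised intensity (horizontal axis, log scale) of the tested markers of each cell type on the virus-injected and lineage arrays, 1 point an array. Astrocyte and oligodendrocyte sums are lower on both lineage arrays, and choroid plexus and endothelial sums overlap between the groups. The choroid plexus sum is mostly Kl.

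Patterns most like each carrier over the 4 arrays were sought among 11332 named probes, by the Euclidean distance between log2 values centred on each probe's own mean. The probes nearest to Cd36 read Nts (neurotensin, distance 0.23), Hdc (histidine decarboxylase, 0.27) and Nr2f2 (the nuclear receptor COUP-TFII, 0.32), and those nearest to Crabp1 read Ptdss1 (a phosphatidylserine synthase, 0.27), Tmem107 (0.29) and Dkk3 (0.37). Nearest to Ttr were Lama1 (a laminin chain, 0.18), Fv1 (0.24) and Tacr3 (the neurokinin B receptor, 0.29). Apoe was nearest to Siva1 (0.06), Zfp384 (0.08) and Lmo1 (0.10), and Dbi to Tle5 (0.01), Ufsp2 (0.03) and Marchf2 (0.03). The carriers themselves lay farther apart: 0.58 between Apoe and Dbi, 0.61 between Cd36 and Crabp1, and 2.23 to 3.83 between Ttr and the others. With 4 arrays in 2 groups such a distance mostly compares the sizes of the group difference. Cd36 and Crabp1 themselves lay below the dimmest detected probe on both lineage arrays, as did Ptdss1, Tmem107 and Marchf2. Lama1, Fv1 and Tacr3 lay below it on both virus-injected arrays. Distances that involve any of these probes, including all those from Cd36 and Crabp1, therefore partly compare values at background.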

How the data were processed

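RNA from anti-hemagglutinin immunoprecipitates was hybridised to 4 arrays, 2 in each group. The deposited table gives, per the file headers, each probe's mean intensity, the beads behind it, their standard error and a detection p-value. Per the submitters' processing notes the values came from GenomeStudio; its version and settings are not given in the sources used here. The authors' processed intensities proved to be a straight line of the deposited ones (residuals of at most 0.0101), with a constant of 416 to 440 subtracted and array means made equal at 718. They served as an alternative, with column medians of 134, 126, 122 and 130 and a floor of 16.

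Deposited intensities were corrected and normalised with neqc of limma 3.58.1 in R 4.3.3 (normexp from the detection p-values, offset 16, quantile normalisation, log2). Between 10982 and 12306 probes an array were detected, from a median of 38 to 39 beads. Log2 values correlated at 0.968 and 0.964 within the groups and 0.949 to 0.960 across them. The difference was fitted with lmFit and eBayes on all 4 arrays and the p-values were adjusted by Benjamini-Hochberg over 12266 probes; 2 residual degrees of freedom remain, and an exact permutation of 2 against 2 cannot go below 0.333. The labels do not say that arrays came from separate animals, so the spread that the p-values measure may be technical. The fit was tested on simulated data.

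Platform annotation gave 1 symbol to 23978 probes, several to 0 and none to 1719; unnamed probes are not without a gene. Members and lists were chosen with earlier results of these data known. Named were all probes of the 5 genes, the 4 tested genes of smallest p of each pathway list, the 1 of smallest p of each marker list with markers detected on no array, Pomc, Rpl22 and the 3 nearest probes to each gene; Acta2, Kl and Calml4 were added after their values were seen. Alternatives covered background, scaling, filter, spread model, replicate block and each array left out. Promoter windows were available for 4 of the 5 genes.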

Additional observations from a re-analysis of the deposited data

How the results depend on the processing

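The count of probes past the adjusted threshold was 0 as reported, and also 0 under cyclic loess, both other filters, the replicate block and each array left out. It was 232 with a trend, 45 without background correction, 5 with median scaling and 1 with the authors' processed values. Of the pathway genes, 1 passed with a trend (Scarb1), and none under the other settings tried. Same-numbered arrays did not deviate together (r = -0.02 over probes), so the numbers were not taken as pairs, and under the replicate block the count of calls was 0.

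Against the values reported, Cd36 (-2.07) was at -0.80 without background correction and -3.91 with the authors' values, and -2.24 to -1.93 with 1 array left out. Crabp1 (-1.80) was at -0.68 and -3.56. Apoe (-1.01) was at -0.62 and -0.99, at -0.98 with median scaling, and -1.05 to -0.99 with 1 array left out. Ttr (1.75) was at 0.81 without background correction. The brightest Dbi probe stayed within its spread between arrays under all 9 settings. The size of the Cd36 difference in the authors' values depends on the floor of 16, since lineage replicate 1 was at 6.98. The Crabp1 values of the lineage arrays, 29.3 and 22.4, lay above that floor.

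Signs changed only with 1 array left out: the dim Dbi probe ranged from -0.33 to 0.23 (without virus-injected replicate 2), Slco1c1 from -1.44 to 0.026 Ly6c1 from -0.50 to 0.16 and Calml4 from -0.55 to 0.25 (all 3 without lineage replicate 1), and Kcne2 from -0.017 (without lineage replicate 2) to 0.91. Of the 49 other probes named, 4 changed sign in this way and 14 passed the threshold under some setting. Signals near background limit Cd36, Crabp1 and Ttr, each in 1 group.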
